A study of Mus musculus with 28 samples.

Results

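Benzarone was compared with its solvent DMSO in a mouse bone marrow line transformed by HOXA9. The comparison takes 6 of the 28 samples of the series, 3 libraries with benzarone and 3 with DMSO, and covers every gene of the line count table. Both groups were c-Kit+ stem and progenitor cells of C57Bl/6 bone marrow that carried a HOXA9 retrovirus, had been sorted on GFP and had gone through 4 rounds of replating in methylcellulose. One group then received 5 µM benzarone for 72 h and the other DMSO for the same time. A line that carried EYA1 beside HOXA9, sorted on GFP and dTomato and otherwise made and treated alike (n = 3 with each agent), shared the fit and served to test whether the response differed between lines. The labels do not say that the libraries came from separate cultures, so p-values measure the spread between these libraries, which may be technical.

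HOXA9 is a homeobox factor of early blood progenitors, and forced HOXA9 keeps myeloid progenitors dividing in culture at an immature, granule-forming stage. The EYA proteins are transcriptional coactivators that bind homeobox factors and carry a tyrosine phosphatase activity. Benzarone, a benzofuran once used as a uricosuric and vascular drug, inhibits that phosphatase. In bulk RNA, fewer cells of a kind and less RNA of a gene in each cell cannot be told apart.

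The 6 libraries held 26340517 to 32640082 counts, with the 3 benzarone libraries (29718036 to 32640082) above the 3 DMSO libraries (at most 27030974). Values are given as CPM (counts relative to the scaled library size), in the order of replicates 1, 2 and 3. Hoxa9 was present in every HOXA9 library, at 241, 187 and 180.4 CPM with DMSO and 221, 215 and 197 CPM with benzarone. The groups overlapped, and the log2 difference was 0.06 (SE 0.189). These counts do not tell RNA of the HOXA9 retrovirus from RNA of the cells' own gene. Csn2, the gene of the milk protein beta-casein, was the most abundant RNA of all 6 libraries, at 21246 to 27514 CPM with DMSO and 26804 to 35639 CPM with benzarone.

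Of the 4 EYA genes 1 was clearly expressed. Eya1 had no count in any DMSO library and 1 count in each benzarone library, all under the 3 counts taken as the floor of detection (0.0974 to 0.119 CPM), so no fold is given. Eya2 had 1 count over the 6 libraries and Eya4 had 10, too few for the test. Eya3, the family member that was expressed, read 58.2, 51.3 and 64.6 CPM with DMSO and 52.5, 57.4 and 69.7 CPM with benzarone. These values overlapped (log2 0.04, SE 0.125).

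The homeobox and corepressor partners of EYA were measured at similar levels in both groups. Six4 (log2 -0.29, SE 0.26), Six5 (-0.14, SE 0.203) and the corepressor Dach1 (0.00, SE 0.201) had overlapping groups. In the EYA1+HOXA9 line, where Eya1 stood at 237 CPM with DMSO, Six4 was lower with benzarone by log2 -1.50 (edgeR quasi-likelihood test, Benjamini-Hochberg adjusted p = 0.00116). The difference between the lines did not pass for Six4 (adjusted p = 0.0623). Hoxa10 had no count in any HOXA9 library, which allows at most 3 counts in each, and Meis1, a cofactor of HOXA9, had 1 count in all.

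Across the whole table the HOXA9 line differed little between benzarone and DMSO. No gene of 13375 tested passed an adjusted p of 0.05 in the edgeR quasi-likelihood test (0%), with 232 genes at an unadjusted p under 0.05 (1.73%) and a smallest adjusted p of 0.146. That was the predicted gene Gm10045, at 0.323 to 0.596 CPM with DMSO and at 0 with benzarone, too low for a fold to be given. The 1.73% lay under the share of 0.05 that a calibrated test gives where nothing differs. The test may thus have been conservative here, and the lack of calls does not show that no gene differed. DESeq2 called 14 genes, 11 higher and 3 lower. The median log2 difference over all genes was -0.00 and 49.3% of genes were positive. Of 8787 genes at 10 CPM or more, 8578 (97.6%) had a 95% interval that lay within log2 -1 to 1. At that level 16 genes were higher and 6 lower by more than log2 1, against 493 and 272 in the EYA1+HOXA9 line. There the same test called 3933 genes (29.4%).

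**Figure D1:**
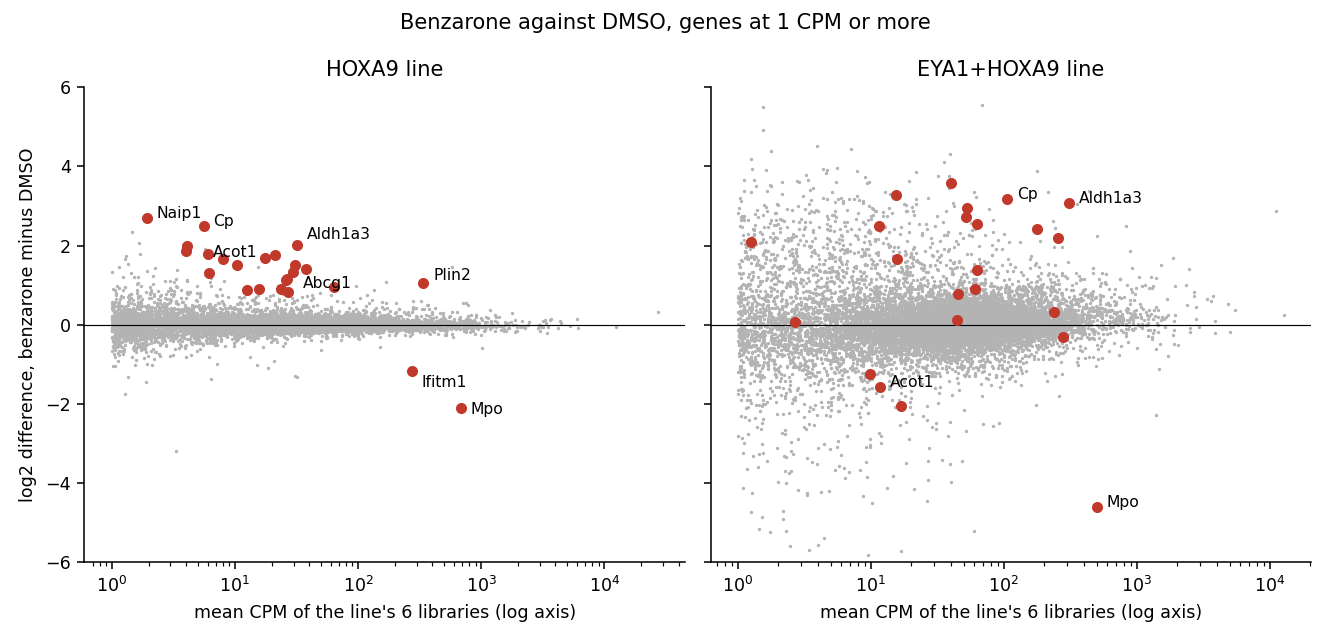
Log2 difference between benzarone and DMSO (vertical) against the mean CPM of the line's 6 libraries (horizontal, log axis) for genes at 1 CPM or more, with the HOXA9 line on the left and the EYA1+HOXA9 line on the right. Red points are genes called in the HOXA9 line in at least 1 fit with the replicate number as a block. The HOXA9 cloud is narrow, with Mpo at -2.11 and Plin2 at 1.04, and the EYA1+HOXA9 cloud is wide.

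HOXA9 libraries with the same replicate number varied together, which bears on every test. Deviations from the group means correlated at 0.279, 0.3 and 0.55 between same-numbered DMSO and benzarone libraries and at -0.406 to 0.161 between libraries of different number. With the replicate number as a block within each line, edgeR called 11 genes in the HOXA9 line (0.0822% of 13375), all of them higher with benzarone. In a fit of the 6 HOXA9 libraries alone with the block, 18 genes were higher and 2 lower (0.16% of 12517). These sets shared 7 genes. With a block fitted in the HOXA9 line only, a setting chosen after seeing the data, no gene was called (335 at an unadjusted p under 0.05). In the EYA1+HOXA9 line same-numbered libraries did not vary together (-0.0653 to 0.00819).

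Counting every fit with a block, 25 genes were called at least once, 23 higher and 2 lower, and in 22 of them the groups did not overlap. By that measure 460 of all genes had each benzarone library above each DMSO library (3.44%) and 261 had each below (1.95%). Genes called with a block are named below after their values were seen, apart from Mpo.

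Mpo and Ifitm1 were the 2 lower genes. Mpo encodes myeloperoxidase, the main enzyme of the primary granules that promyelocytes form. It read 1018, 1215 and 1095 CPM with DMSO and 209, 300.1 and 262 CPM with benzarone. The 3 benzarone libraries lay far under the 3 DMSO libraries, at 0.205, 0.247 and 0.239 of the same-numbered DMSO value. The mean went from 1109 ± 99.7 to 257 ± 46 CPM (SD, n = 3), a log2 difference of -2.11 (SE 0.477, 95% interval -3.15 to -1.07). Mpo did not pass in the fit of 4 groups (edgeR adjusted p = 1), while it passed in the fit of the 6 HOXA9 libraries without the block (edgeR adjusted p = 0.0267) and with it (0.00777). With the block within each line its adjusted p in edgeR was 0.064, and DESeq2, without a block, did not call Mpo.

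The 3 abundant serine proteases of the same granules were level. Elane, neutrophil elastase, read 2934, 3416 and 3458 CPM with DMSO and 3225, 2992 and 3149 CPM with benzarone, overlapping groups with a log2 difference of -0.07 (95% interval -0.33 to 0.20). Ctsg, cathepsin G, read 6082, 6738 and 6069.9 CPM against 6448, 5807 and 5552 CPM (log2 -0.09, SE 0.149). Prtn3, proteinase 3, stood at 2193, 2688 and 2252 CPM against 2649, 2521 and 2266 CPM (log2 0.06, SE 0.142). None of the 3 genes separated the groups, and each interval was within log2 0.5 of 0.

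Over the 13 tested genes of the primary granule list (15 listed), 4 log2 differences were positive, the median was -0.08 and, with the block in the 6-library fit, Mpo was the 1 gene called. Over all genes 49.3% were positive, and that fit called 0.16%. Calr, a chaperone that folds myeloperoxidase in the endoplasmic reticulum, was at -0.04 (SE 0.171). The granule cystatin Cst7 had each benzarone library (316 to 324 CPM) under each DMSO library (334 to 398 CPM), at log2 -0.19 (edgeR adjusted p = 1). The 13 tested genes summed to 20586 to 23816 CPM with DMSO and 18439 to 21491 CPM with benzarone.

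**Figure D2:**
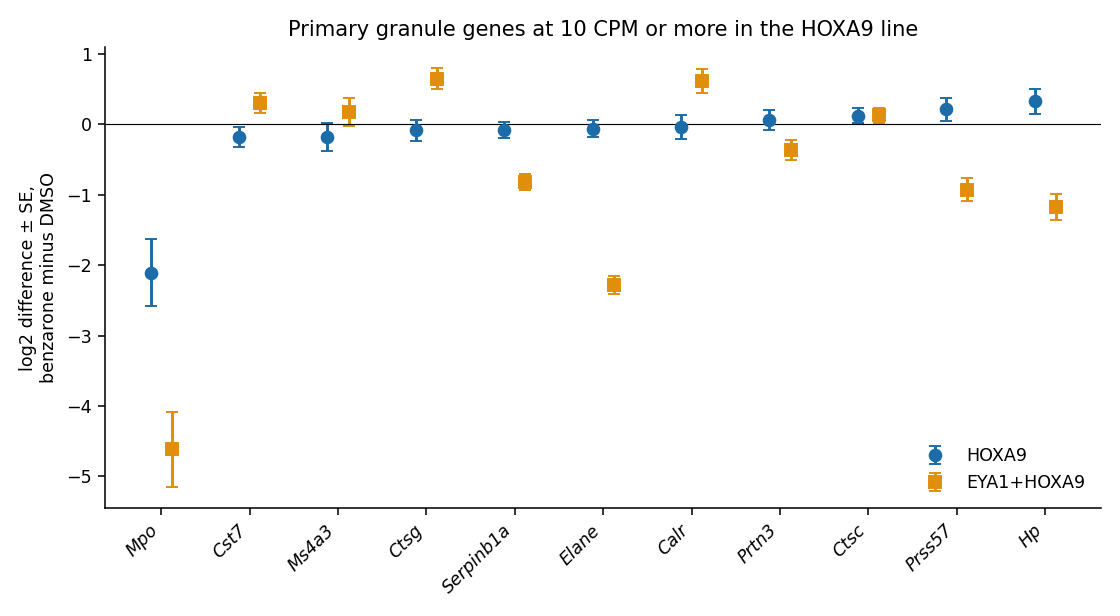
Log2 difference between benzarone and DMSO, with its SE as the bar, for the 11 primary granule genes at 10 CPM or more in the HOXA9 line. Circles are the HOXA9 line and squares the EYA1+HOXA9 line (3 libraries for each agent in each). Mpo lies at -2.11 in the HOXA9 line and -4.61 in the EYA1+HOXA9 line, and Elane at -0.07 and -2.29.

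Ifitm1, an interferon-induced membrane protein that restricts viral entry, read 403, 386 and 347 CPM with DMSO and 207, 158 and 140.3 CPM with benzarone. All benzarone libraries were under all DMSO libraries, by a log2 difference of -1.17 (SE 0.213). It was called by the 6-library fit with the block (edgeR adjusted p = 0.03) and by DESeq2 (adjusted p = 0.000507), and not by the fit of 4 groups (edgeR adjusted p = 0.562). In the EYA1+HOXA9 line the log2 difference was -0.30 (edgeR adjusted p = 0.319), and the difference between lines did not pass (adjusted p = 0.0954).

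Genes of lipid storage and export were among the higher genes. Fatty acids activate the PPAR nuclear receptors and oxysterols the LXR receptors, and both classes of receptor pair with RXR to raise genes that burn, store or export lipid. Plin2 coats lipid droplets and is a widely used PPAR target. It read 267, 180.4 and 217 CPM with DMSO and 571, 376 and 423 CPM with benzarone. Every benzarone library was above every DMSO library, by 2.14, 2.09 and 1.95 times in the 3 pairs (log2 1.04, SE 0.252). Plin2 passed with the block within each line (edgeR adjusted p = 0.0426) and not without it (1). DESeq2, fitted without a block, called Plin2 (adjusted p = 0.0416).

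Acot1, a cytosolic acyl-CoA thioesterase, read 9.15, 10.7 and 9.16 CPM with DMSO and 40.4, 32.7 and 25.7 CPM with benzarone. The groups were far apart, with a mean of 9.65 ± 0.864 against 32.9 ± 7.37 CPM (SD, n = 3, log2 1.77). The edgeR adjusted p was 0.0336 in the 6-library fit with the block, 0.0862 in that fit without it and 0.233 with the block within each line. It was 1 in the fit of 4 groups, while DESeq2, without a block, called Acot1 (adjusted p = 0.0171). The paralog Acot2 has a closely similar sequence, so the split of reads between them is uncertain, and it read 3.95 to 4.49 CPM against 5.46 to 6.56 CPM (log2 0.46, SE 0.276). Cpt1a, which brings fatty acids into mitochondria, was at log2 0.36 (SE 0.152) and the carnitine carrier Slc25a20 at 0.30 (SE 0.118), neither past the adjusted threshold (edgeR adjusted p = 1). Angptl4, another PPAR target, had overlapping groups at 0.08 (SE 0.185).

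Abcg1, a sterol exporter that LXR raises, read 16.8, 12.7 and 21.2 CPM with DMSO and 41.7, 36.0 and 50.0 CPM with benzarone. No library overlapped with the other group (log2 1.33, SE 0.29, edgeR adjusted p = 0.0226 in the 6-library fit with the block and 0.0592 with the block within each line). DESeq2, without a block, called Abcg1 too (adjusted p = 0.0122). Its partner exporter Abca1 was rare, at 0.352, 0.238 and 1.29 CPM against 2.24, 1.22 and 4.57 CPM. It was higher in each pair, by 6.37, 5.1 and 3.53 times, though the groups overlapped (log2 2.06, SE 0.685) and it did not pass with the block (edgeR adjusted p = 0.0894). Apoe, also raised by LXR, had each benzarone library lower, at 1.18 to 1.48 CPM against 1.65 to 2.42 CPM (log2 -0.56, SE 0.231, edgeR adjusted p = 1).

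Of 24 tested PPAR receptor and target genes (30 listed) 16 were positive with a median of 0.06, beside 49.3% positive and a median of -0.00 over all genes. In 6 of them the groups did not overlap upward and in none downward, against 3.44% and 1.95% of all genes, and 2 were called in the 6-library fit with the block (0.16% of all genes). The 24 tested genes summed to 2194 to 2259 CPM with DMSO and 2439 to 2709 CPM with benzarone, without overlap. Plin2, at the values given above, was a large part of that difference in the sums. Of 10 genes of sterol efflux 7 were positive with a median of 0.11 and 1 was called in that fit. The extremes of the PPAR list were Pdk4 (3.21) and Ehhadh (-2.82), each under 0.3 CPM in every HOXA9 library and therefore uncertain. Sterol synthesis genes had a median of 0.02 over 23 genes, and all 23 intervals lay within log2 -1 to 1. Fatty acid synthesis genes had a median of 0.11 over 13 genes with none called.

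The letters AGGTCA are the half-site that PPAR, LXR and retinoic acid receptors read, and their search was chosen after the lipid genes had been seen. They were sought on both strands in the 250 bases before each gene's start in the RefSeq promoter table (GRCm38.p6). They occurred in 7 of 19 genes of the PPAR list with a promoter (36.8%), in 2 of 19 genes called with a block (10.5%) and in 1228 of 9451 tested genes (13%). A match is a description of letters and shows no binding. Below are 30 bases, 5′ to 3′ on the gene's strand, around the half-site (capitals, in either orientation) of the 2 genes called with a block and of 2 further PPAR list members, picked for their higher values. The other members with the half-site were level, Acadm at 0.07, Acadvl at 0.06, Pparg at -0.05 and Rxra at -0.01.
Plin2, chr4:86670260-86670289, minus strand: tttcaggaccccTGACCTaagtcagacagc
Ltf, chr9:111019234-111019263, plus strand: gccagcccggtgAGGTCAcccagcacagat
Cpt1a, chr19:3323195-3323224, plus strand: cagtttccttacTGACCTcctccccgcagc
Cd36, chr5:17836107-17836136, minus strand: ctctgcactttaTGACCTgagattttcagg
The half-site began 218 bases before the start in Plin2, 46 in Ltf, 94 in Cpt1a and 228 in Cd36. Cd36, a fatty acid scavenger receptor, read 0.860, 0.556 and 0.862 CPM with DMSO and 3.51, 0.789 and 3.62 CPM with benzarone. Its second benzarone library lay within the DMSO range (log2 1.79, SE 0.612, edgeR adjusted p = 1).

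Retinoid genes made a small set of higher values. Aldh1a3 makes retinoic acid from retinal, and it read 17.7, 12.7 and 7.76 CPM with DMSO against 57.2, 59.2 and 37.5 CPM with benzarone. The groups were separate, with ratios of 3.22, 4.67 and 4.84 in the pairs (log2 2.01, SE 0.539). Aldh1a3 passed with the block within each line (edgeR adjusted p = 0.0448) and in the 6-library fit with the block (0.0266). DESeq2, without a block, did not call it (adjusted p = 0.288).

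Some genes that retinoic acid itself raises, 3 of them picked here after their values were seen, were also higher in each benzarone library, without passing. Over all genes 3.44% had no overlap upward. Dhrs3, which turns retinal back to retinol, read 12.7, 9.30 and 12.5 CPM against 22.4, 15.4 and 20.1 CPM (log2 0.74, SE 0.219, edgeR adjusted p = 1). Cyp26a1, which degrades retinoic acid, read 1.88, 1.47 and 3.74 CPM against 9.87, 6.87 and 10.3 CPM (log2 1.92, SE 0.801, edgeR adjusted p = 1). The receptor gene Rara was at 14.0 to 22.3 CPM against 23.1 to 34.2 CPM (log2 0.60, SE 0.256). The lowest adjusted p for these 3 genes in the 6-library fit with the block was 0.0574, for Cyp26a1. The other 6 tested genes of the list (10 tested of 18), among them Rxrb, Stra6 and Tgm2, were level, between -0.09 and 0.00. The list median was -0.00, and the receptor gene Rarb had no count in any HOXA9 library.

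**Figure D3:**
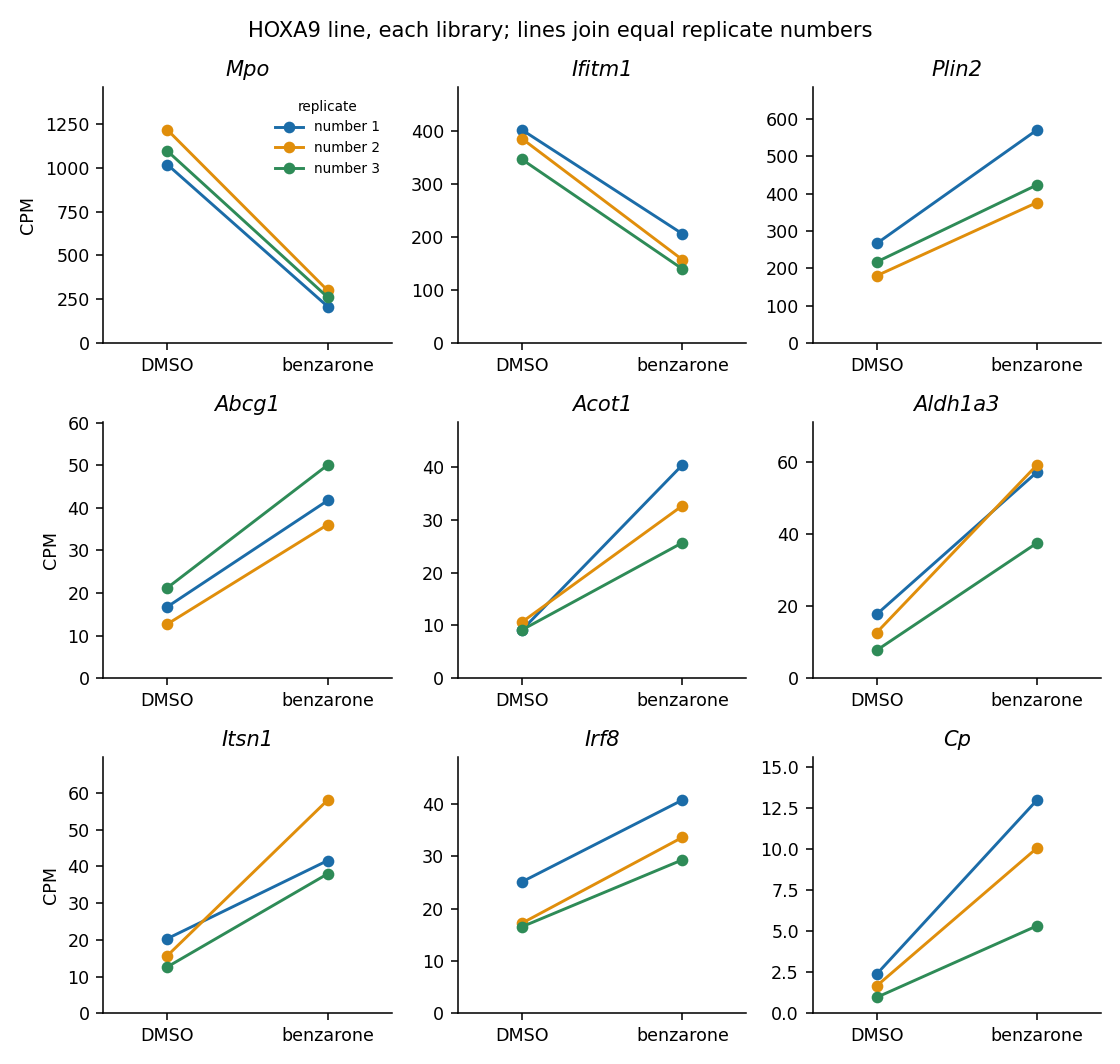
CPM of 9 genes in each HOXA9 library with DMSO and benzarone, on axes that start at 0. Lines join libraries of the same replicate number. Mpo and Ifitm1 go down in each pair and the other 7 genes up, and the 2 agents do not overlap in any of the 9 panels.

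Monocyte and macrophage genes were moderately higher as a list. Irf8, the factor that directs progenitors to the monocyte and dendritic fate, read 25.1, 17.2 and 16.5 CPM with DMSO and 40.7, 33.6 and 29.3 CPM with benzarone. The groups did not overlap (log2 0.82, SE 0.227, edgeR adjusted p = 0.0448 with the block within each line and 1 without). Over 23 tested genes (25 listed) 18 were positive and the median was 0.38, with pair medians of 0.50, 0.31 and 0.36, beside 49.3% positive and a median of -0.00 over all genes. In 3 of them no library overlapped upward, and in 1, the integrin gene Itgax, none overlapped downward. Over all genes these shares were 3.44% and 1.95%. Irf8 was the single gene of the list called in any fit with a block.

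The most abundant monocyte genes were level. Ly6c2, a surface marker of inflammatory monocytes, was at log2 0.04 (SE 0.155) and F13a1, a transglutaminase of monocytes, at 0.06 (SE 0.272). Ccr2, the chemokine receptor that guides monocytes out of marrow, read 147, 111 and 152 CPM against 237, 165 and 205 CPM and did not overlap (log2 0.56, SE 0.272, edgeR adjusted p = 1). The lysosomal glycoprotein gene Gpnmb was at 159.9 to 265 CPM against 271 to 397 CPM (log2 0.59, SE 0.303). Csf1r and the lysozyme gene Lyz2 had overlapping groups at 0.75 and 0.51. Mrc1, a macrophage lectin receptor, stood at 108 and 111 CPM in the replicate 3 libraries and at 9.67 to 14.1 CPM in the others, and Arg1 was likewise highest in replicate 3 of both groups (35.1 and 66.0 CPM).

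Secondary granule and late neutrophil genes also lay on the higher side, with a large spread that followed the replicate number. Of 20 tested genes 19 were positive and the median was 0.48, with pair medians of 0.77, 0.24 and 0.31. Over all genes 49.3% were positive. S100a8, a calcium-binding alarmin of neutrophils, read 622, 331 and 886 CPM with DMSO and 1309.5, 368 and 1017 CPM with benzarone. Replicate 2 was the lowest of each group and the groups overlapped (log2 0.55, SE 0.509). Ngp, a secondary granule protein, ran from 47.8 to 460.3 CPM within the DMSO group alone and from 58.0 to 543 CPM within the benzarone group. The list summed to 1908.7 to 3976 CPM with DMSO and 2594.9 to 5816.4 CPM with benzarone, and the part of this replicate spread in the list's median was not tested.

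Ltf, the iron-binding protein lactoferrin of secondary granules, shows what the block changes. It read 14.7, 3.34 and 31.1 CPM with DMSO and 27.2, 5.82 and 59.9 CPM with benzarone. The groups overlapped widely, yet the ratio was 1.85, 1.74 and 1.93 in the 3 pairs. The log2 difference of 0.92 had an SE of 0.81 without the block and 0.301 with it, and Ltf was called in the 6-library fit with the block (edgeR adjusted p = 0.0453) but not with the block within each line (1).

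Chil3, a chitinase-like secreted protein of myeloid cells on the same list, read 338, 367 and 227 CPM with DMSO and 1219, 753 and 597 CPM with benzarone. Each benzarone library was above each DMSO library (log2 1.46, SE 0.3). DESeq2 called it (adjusted p = 0.00222), and the edgeR adjusted p was 0.0718 with the block within each line and 0.0578 in the 6-library fit with it. Itgam, the CD11b integrin chain of mature myeloid cells, read 374, 319.6 and 391 CPM against 510.2, 439.9 and 505 CPM. Its groups were separate (log2 0.42, SE 0.193, edgeR adjusted p = 1). Cybb, the oxidase subunit of phagocytes, was at log2 0.63 (SE 0.281, edgeR adjusted p = 1) with separate groups too.

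Transcription factors of the granulocyte line and progenitor genes were close to level. Over 10 granulocyte factor genes the median was 0.09, and Spi1 (0.11, SE 0.119), Gfi1 (0.03, SE 0.134) and Cebpa (0.18, SE 0.164) had overlapping groups. Kit, the stem cell factor receptor used to isolate the founding cells, read 102, 84.7 and 83.4 CPM against 76.0, 84.1 and 75.9 CPM (log2 -0.19, SE 0.201). Cd34 was under 1.3 CPM in all 6 libraries. Myc (-0.07, SE 0.205) and Fli1 (-0.04, SE 0.101), regulators of progenitor growth, had overlapping groups. Myb, another such regulator, was lower in each benzarone library by a small margin (363 to 418 CPM against 419 to 433 CPM, log2 -0.11, SE 0.106, edgeR adjusted p = 1).

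RNA of other lineages was low in both groups. Gata1, Cd3e, Cma1, Epx and the beta-globin gene Hbb-bt, which define erythroid, T, mast and eosinophil cells, had no count in any HOXA9 library. The 5 tested mast cell and basophil genes (16 listed) summed to 26.8 to 31.0 CPM with DMSO and 25.0 to 31.4 CPM with benzarone. The 5 tested lymphoid genes (18 listed) summed to 11.8 to 13.1 and 9.04 to 11.0 CPM. The sum of the 3 tested erythroid genes (17 listed) was 514 to 861 CPM against 516 to 808 CPM. It came mostly from the transferrin receptor Tfrc, which dividing cells also carry. Car2, carbonic anhydrase 2, read 11.1, 5.80 and 8.12 CPM against 40.9, 12.5 and 14.9 CPM and did not pass (log2 1.45, SE 0.511, edgeR adjusted p = 1).

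C5ar1 and Naip1 were also called with a block. The receptor gene C5ar1, which senses the complement peptide C5a, read 7.90, 3.02 and 13.8 CPM against 26.3, 15.1 and 38.4 CPM (log2 1.69, edgeR adjusted p = 0.0453 in the 6-library fit with the block). With the block within each line the edgeR adjusted p of C5ar1 was 0.46. Naip1, an inflammasome sensor, read 0.782, 0.318 and 0.431 CPM against 4.45, 2.50 and 3.09 CPM (log2 2.70, edgeR adjusted p = 0.0426 with the block within each line). Both genes were higher in each benzarone library than in each DMSO library, and Naip1 has near-identical paralogs, so its count is uncertain.
Tarm1, Milr1, Lilra6 and the predicted gene Gm14548 encode or resemble Ig-like receptors of myeloid cells, and their log2 differences were 0.95, 0.87, 1.52 and 1.41. Lilra6 and Gm14548 lie in a family of similar genes, so reads may be split between members. Each of the 4 was called in 1 or 2 of the fits with a block.

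Zbp1, a sensor of Z-form nucleic acids that interferon raises, read 3.68, 1.95 and 2.55 CPM with DMSO and 13.4, 6.58 and 8.19 CPM with benzarone. The groups were apart (log2 1.78, edgeR adjusted p = 0.0226 in the 6-library fit with the block). On the interferon-stimulated list 18 of 20 tested genes (24 listed) were positive, the median was 0.28 with pair medians of 0.36, 0.30 and 0.34, and 9 had no overlap upward and none downward. Over all genes 49.3% were positive, 3.44% had no overlap upward and 1.95% none downward. Zbp1 was the 1 gene called, in that fit only among those with a block. Other members were rare, such as Usp18 and Rsad2 at 1.3 CPM or less. Ifitm1, not on this list, lay on the opposite side at -1.17.

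Cp had the smallest adjusted p of any gene with the block within each line and with 1 block over both lines. In the 6-library fit with the block Mpo was lower (edgeR adjusted p = 0.00777 against 0.0116 for Cp), and with the block in the HOXA9 line only Cp did not pass (edgeR adjusted p = 1). Cp encodes ceruloplasmin, a copper-carrying ferroxidase, and read 2.38, 1.67 and 0.970 CPM with DMSO and 13.0, 10.1 and 5.33 CPM with benzarone. The groups did not overlap, and the ratios of the pairs were 5.44, 6.03 and 5.49. The log2 difference was 2.49 with an SE of 0.128 with the block within each line (edgeR adjusted p = 0.000411), and 2.50 with an SE of 0.678 without it (adjusted p = 1). Cp was called in each of the 3 planned fits with a block, and with the block within each line when any 1 pair was left out (adjusted p of 0.00901 to 0.0197). DESeq2, without a block, did not call Cp (adjusted p = 0.233).

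The remaining genes called with a block were of mixed function. Itsn1, an endocytosis scaffold, read 20.3, 15.7 and 12.6 CPM with DMSO and 41.6, 58.0 and 38.0 CPM with benzarone (log2 1.50, SE 0.302). The RNA-binding gene Rbpms read 5.47, 2.50 and 3.52 CPM against 15.0, 10.3 and 10.9 CPM (log2 1.66, SE 0.312). Neither gene had overlapping groups, both passed with the block within each line (edgeR adjusted p = 0.0448 for each), and DESeq2 called both. Sowahc (1.14), the cytokine gene Tgfb2 (1.99), the Ral exchange factor Rgl1 (1.30), the protocadherin Pcdh11x (1.12), the peroxidase Gpx8 (0.91) and the sulfotransferase Chst15 (1.87) were called with a block as well. The predicted gene Gm8226 had no count in 4 libraries and 3.58 and 6.80 CPM in benzarone replicates 2 and 3, so it rests on 2 libraries.

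Cell cycle, ribosome and stress genes differed little. All 24 mitosis genes, 26 replication genes, 20 ribosome synthesis genes, 20 ribosomal protein genes, 21 nuclear respiratory chain genes and 20 genes of the unfolded protein response had 95% intervals within log2 -1 to 1, as had 97.6% of all genes at 10 CPM or more. Their medians were 0.00, -0.05, -0.04, -0.05, -0.04 and 0.09, beside -0.00 over all genes, and none was called. The small differences leaned one way in some lists. In the unfolded protein response 19 of 20 were positive and 3 did not overlap upward (49.3% and 3.44% over all genes). By contrast, 22 of 26 replication genes and 17 of 20 ribosomal protein genes were negative. The pair medians were -0.01, -0.11 and -0.05 for the replication genes. For the ribosomal protein genes they were 0.19, -0.26 and -0.10, so the direction differed between pairs. Examples from these lists were the proliferation marker Mki67 (0.04, SE 0.214), the topoisomerase Top2a (0.06, SE 0.137), the helicase subunit Mcm6 (-0.11, SE 0.122), the nucleolar gene Npm1 (-0.16, SE 0.202) and the chaperone Hspa5 (0.15, SE 0.234). Genes of the ATF4 and serine pathway were negative in 20 of 23 with a median of -0.14, none of them called, and Atf4 itself was at -0.14 (SE 0.166).

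Genes that p53 raises lay slightly on the higher side. Of 18 tested (20 listed) 16 were positive, the median was 0.26 and the pair medians were 0.31, 0.25 and 0.23, while 5 had no overlap upward (49.3% positive and 3.44% without overlap over all genes). None was called, as in the table as a whole without the block, nor with the block within each line or in the 6-library fit. The cyclin gene Ccng1 read 233, 276 and 207 CPM with DMSO and 361, 329.8 and 279 CPM with benzarone (log2 0.44, SE 0.177), and these groups were apart. Mdm2, the ligase that degrades p53, read 78.3, 80.4 and 76.8 CPM against 96.1, 96.5 and 88.0 CPM (log2 0.25, SE 0.101), again apart. Cdkn1a, the cell cycle inhibitor p21, had touching groups at log2 0.47 (SE 0.164). The edgeR adjusted p was 1 for each of these genes, and 0.281 was the lowest of the 3 in the 6-library fit with the block.

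Mitochondrially encoded genes differed between libraries rather than agents. All 13 were on the negative side with a median of -0.17, but the pair medians were -1.23, 0.67 and -0.31. The oxidase subunit mt-Co1 read 5062, 2808 and 3197 CPM with DMSO and 2279.9, 4910.3 and 2419.6 CPM with benzarone. The high libraries were DMSO replicate 1 and benzarone replicate 2, and no gene of the list was called.

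**Figure D4:**
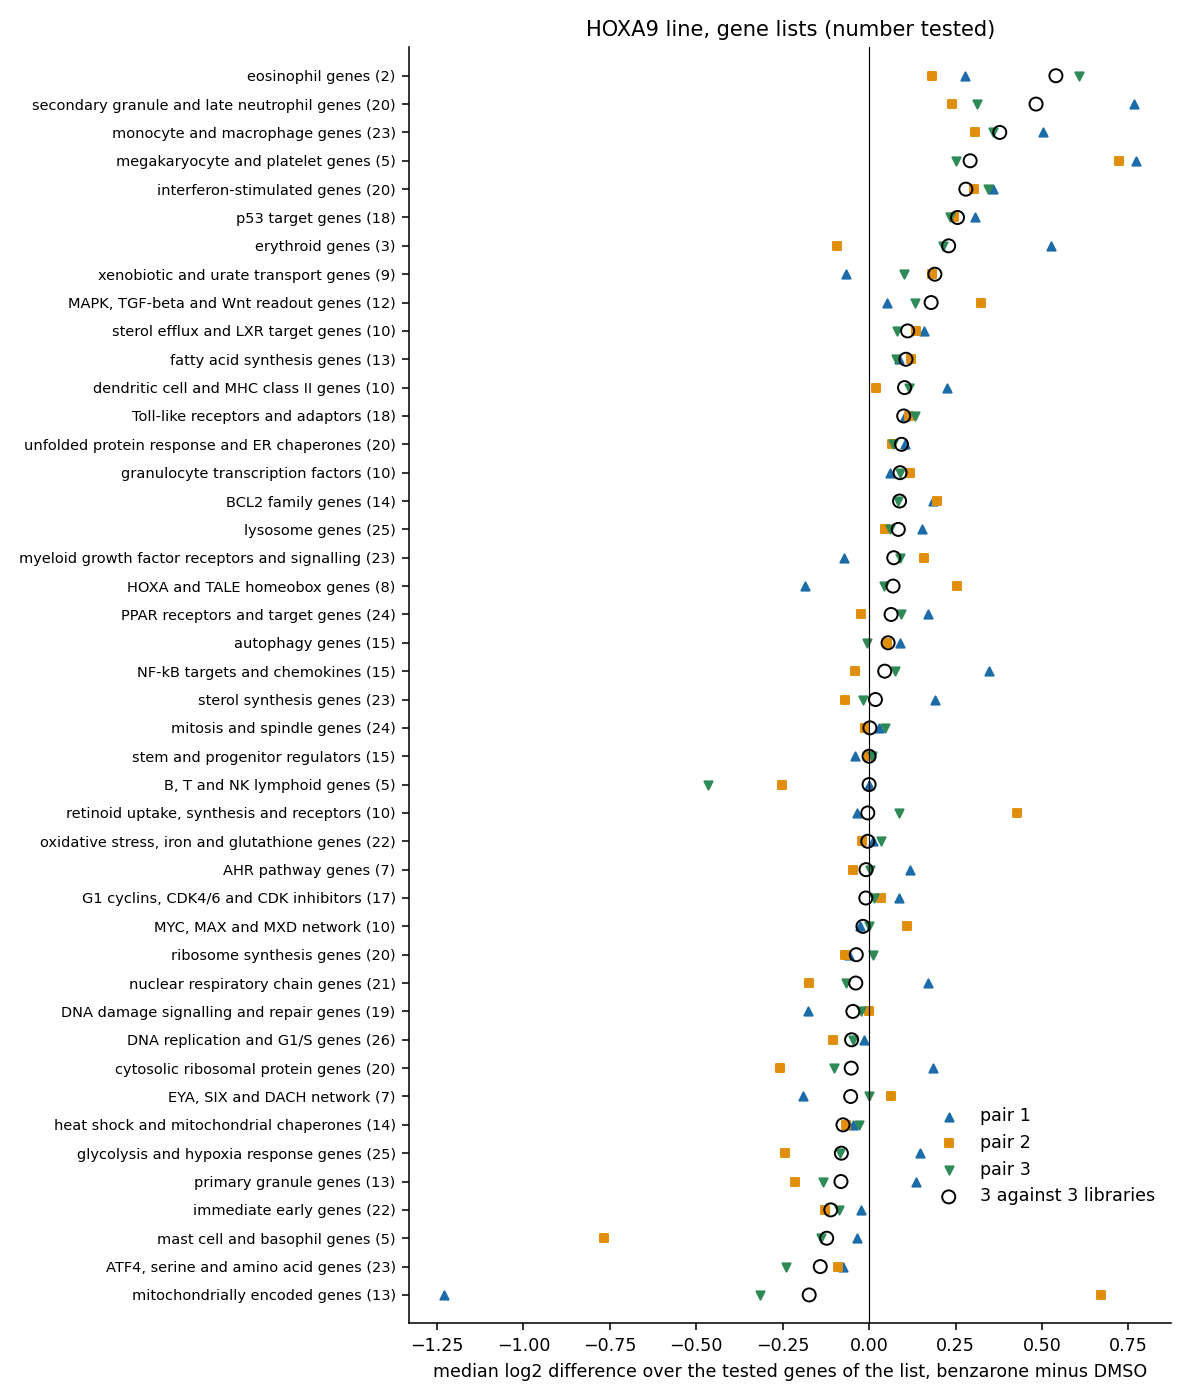
Median log2 difference between benzarone and DMSO in the HOXA9 line for each of the 44 gene lists, with the number of tested genes in brackets. Open circles are the fit of 3 against 3 libraries and filled symbols the medians of the 3 same-numbered pairs. Secondary granule (0.48) and monocyte genes (0.38) stand highest among lists of 10 or more genes, and mitochondrially encoded genes show the widest pairs (-1.23 to 0.67).

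Whether the HOXA9 line responded differently from the EYA1+HOXA9 line was tested by the interaction of line and agent. edgeR called 1009 genes (7.54% of 13375), 379 with the HOXA9 difference above that of the EYA1+HOXA9 line and 630 below. In 926 of them the HOXA9 difference was smaller than log2 0.5 in size, and in 1002 it was smaller in size than that of the EYA1+HOXA9 line. Over these genes, which the test itself chose for a difference, the median size was log2 0.11 in the HOXA9 line and 1.30 in the EYA1+HOXA9 line. Over all genes it was 0.0817 and 0.330.

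Several genes named above showed this. Mpo went lower in both lines, by -2.11 and -4.61, and the difference between lines passed (edgeR adjusted p = 0.0388). Elane was at -0.07 in the HOXA9 line and -2.29 in the EYA1+HOXA9 line (adjusted p = 0.000127 in edgeR). Hoxa9 was at 0.06 and 1.87 (0.0045), with 382 CPM under DMSO and 1402 CPM under benzarone in the EYA1+HOXA9 line. Both lines carried the HOXA9 retrovirus, and whether the retrovirus or the cells' own gene differed cannot be told from these counts. Myc was at -0.07 and -1.24 (0.0319), and Csn2 at 0.32 and 2.87 (0.0125), so the HOXA9 line held the high Csn2 level with either agent.

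Acot1 was opposite in the lines, at 1.77 in the HOXA9 line and -1.56 in the EYA1+HOXA9 line (edgeR adjusted p = 0.00751 for the difference). Chst15 was likewise at 1.87 and -2.05 (edgeR adjusted p = 0.0242). In the EYA1+HOXA9 line Chst15 read 56.7, 11.1 and 13.2 CPM with DMSO and 10.7, 6.82 and 1.93 CPM with benzarone. Its -2.05 thus leans on DMSO replicate 1. Acot1, Chst15 and Mpo were the 3 of the 25 genes called with a block whose difference between lines passed, beside 7.54% of all genes. For Plin2 (1.04 and 0.32), Abcg1 (1.33 and 0.13), Aldh1a3 (2.01 and 3.09) and Irf8 (0.82 and 1.37) it did not pass (edgeR adjusted p of 0.0895 to 0.422). Of the 25 genes, 15 also passed in the EYA1+HOXA9 line in the same direction, among them Cp, Aldh1a3, Irf8, Itsn1 and Zbp1, and 2 in the opposite direction. Of all 13375 genes, 3933 (29.4%) passed in that line, 2278 of them higher.

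Among the genes of smallest interaction p, the HOXA9 line gave level values. The claudin Cldn15 read 84.2 ± 7.87 CPM with DMSO and 85.8 ± 8.57 CPM with benzarone in the HOXA9 line (SD, n = 3), and was lower by -2.47 in the EYA1+HOXA9 line. Dgat2, which makes triglyceride, was at 30.9 ± 5.95 and 27.1 ± 4.78 CPM in the HOXA9 line and at -3.44 in the EYA1+HOXA9 line. The adhesion genes Ncam1 and Itga1, the kinase gene Map3k15, the scramblase family gene Plscr3 and the cytoskeletal linker Schip1 lay between -0.43 and 0.26 in the HOXA9 line and between -3.93 and -1.51 in the EYA1+HOXA9 line. The interaction passed for all 7 of these genes (edgeR adjusted p of 9.94e-05 to 0.000502).

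**Figure D5:**
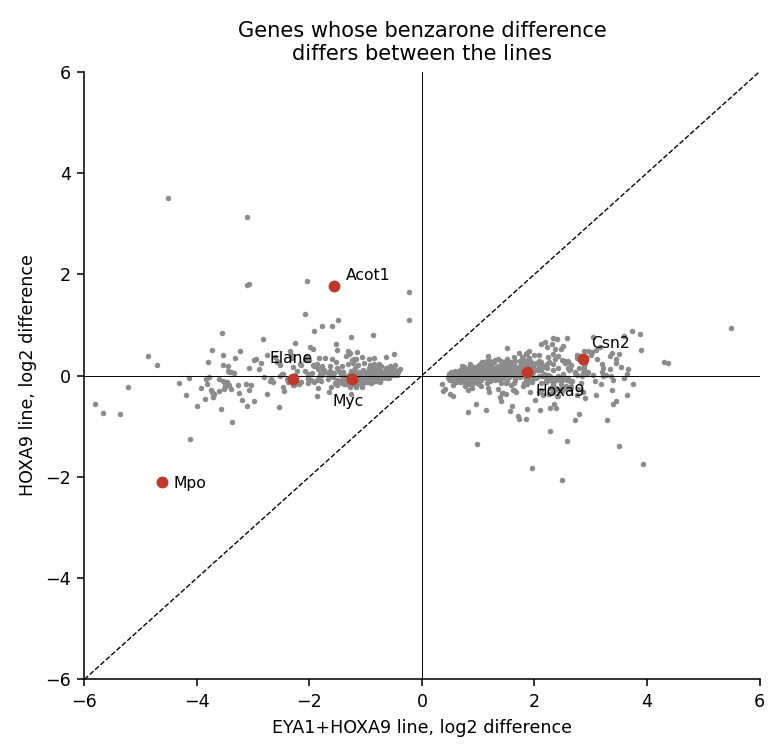
Log2 difference between benzarone and DMSO in the HOXA9 line (vertical) against the EYA1+HOXA9 line (horizontal) for genes whose interaction passed, with equal values on the dashed line and 10 genes outside the axes. Most points lie along the horizontal axis, and Mpo (-2.11 and -4.61) and Acot1 (1.77 and -1.56) are among the exceptions.

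By list, the interaction called 8 of 20 genes of the unfolded protein response and 8 of 25 lysosome genes, beside 7.54% of all genes. In the HOXA9 line those lists had medians of 0.09 and 0.08 with none called, and in the EYA1+HOXA9 line 15 and 20 of their members were higher, where 2278 of all 13375 genes were. Of 13 primary granule genes the interaction called 6, among them Mpo, Elane and Hp, the last at 0.33 in the HOXA9 line and -1.17 in the EYA1+HOXA9 line. Of 23 monocyte genes it called 4, where 13 were higher in the EYA1+HOXA9 line.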

How the data were processed

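The authors deposited a line table of gene-level estimated counts without normalization. The submitters' processing notes name Salmon 0.13.0 and the builds GRCm38 and mm10, with no role given, and the step from transcripts to genes is not given in the sources used here. Poly(A) RNA (200 ng) was made into strand-specific libraries with 14 to 15 amplification cycles, per the labels' protocols. Estimated counts were rounded and analysed in R 4.3.3 with edgeR 4.0.16. filterByExpr kept 13375 of 35429 genes, libraries were scaled by TMM, and a quasi-likelihood model of 4 groups (12 samples) was tested two-sided, with Benjamini-Hochberg adjustment and a threshold of 0.05. The scripts were tested on simulated data. Mean and SD are of CPM with TMM factors, and intervals are 95%. Floors of 3 counts cover counting error only.

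The members, 44 gene lists (791 genes, 652 tested) and tests were chosen with earlier results of these data known. Genes named are 16 fixed ones, for each list its 2 most abundant members where none was called, the 8 of smallest interaction p at 10 CPM or more, and others (including all called with a block, and list members such as Chil3, Abca1 and Dhrs3) chosen after their values were seen. Same-numbered HOXA9 libraries were taken as pairs since all 3 correlations exceeded 0.1. Libraries were not duplicates (chi-square per degree of freedom of 14.5 or more). Alternatives were DESeq2 1.42.0, other scaling and filters, blocks, fewer samples and each library left out. The other tables of the series were not used here. A few genes are not reported here.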

Additional observations from a re-analysis of the deposited data

Results flagged for a closer look

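These results were singled out because the benzarone difference itself differed between the HOXA9 and the EYA1+HOXA9 line by the edgeR interaction test. It called 1009 genes in all. The value given for each gene is the log2 difference in the HOXA9 line minus that in the EYA1+HOXA9 line. It was positive for Chst15 (3.92), Ncam1 (3.68), Map3k15 (3.55), Acot1 (3.33), Schip1 (3.30), Dgat2 (3.25), Itga1 (2.84), Mpo (2.50), Cldn15 (2.50), Elane (2.22), the eosinophil lectin gene Siglecf (1.86), Plscr3 (1.66) and Myc (1.17). It was negative for Hoxa9 (-1.81), the integrin chain Itgb3 (-1.44), the chaperone Hspa5 (-1.25), the ferritin chain Fth1 (-0.97), the early response factor Klf6 (-0.92) and the autophagy gene Gabarap (-0.70). Siglecf read about 1 CPM in the HOXA9 line, so its value rests on few counts. The value of Chst15 leans on 1 high EYA1+HOXA9 DMSO library, replicate 1 (56.7 CPM, beside 11.1 and 13.2 CPM).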

How the results depend on the processing

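In the HOXA9 line edgeR called 0 genes with DESeq2-style size factors, without the low-count filter and with a stricter filter, and 0 to 1 when 1 library was left out (the 1 was Gm8226, without benzarone replicate 1). DESeq2 called 14 genes and the fit of the 6 HOXA9 libraries 1 (Mpo). With the replicate block, the pairing gave 6 genes over both lines, 11 within each line, 20 in the 6 HOXA9 libraries and 0 within the HOXA9 line alone. With the block within each line and a HOXA9 pair left out, calls were 1 to 2, Cp in each case. The block in the HOXA9 line alone and the omitted pairs were chosen after seeing the data. The block within each line also spends terms on EYA1+HOXA9 numbers that did not vary together. Fits with the block leave 2 to 6 residual degrees of freedom. The interaction count was 1009, with 1701 by DESeq2, 1687 with the block within each line and 1720 with it in the HOXA9 line only, and 408 to 1182 when 1 library was left out, the lowest without EYA1+HOXA9 DMSO replicate 3. It was 499 and 588 without HOXA9 DMSO replicates 1 and 2, 667 and 656 without HOXA9 benzarone replicates 2 and 3, and 570 and 541 without EYA1+HOXA9 benzarone replicates 1 and 2. The cause of these changes was not tested. No called value of the 127 named genes changed sign in any alternative, and 25 of them passed in at least 1 alternative. List medians moved by more than the spread of their pairs in 114 values, over 25 lists. With 3 libraries for each agent, the median SE was log2 0.18, or 0.148 at 10 CPM or more, which limits the size of difference that could be detected.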

Other observations

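Dusp6, a phosphatase that ERK signalling raises, read 124, 115 and 137 CPM with DMSO and 200.2, 176 and 180.3 CPM with benzarone in the HOXA9 line. The groups were apart, the log2 difference was 0.56 (SE 0.171), and neither the fit of 4 groups (edgeR adjusted p = 1) nor the 6-library fit with the block (0.123) called it. On its list of MAPK, TGF-beta and Wnt readouts 12 of 12 tested genes were positive with a median of 0.18, and the groups were separate for Dusp6 only. Over all genes 49.3% were positive and 3.44% had no overlap upward. The activin receptor gene Acvr2a was at 3.93 to 5.86 CPM with DMSO and 9.64 to 12.8 CPM with benzarone (log2 1.10, SE 0.241). Nrep, a neuronal regeneration-related gene, was at 0.358 to 0.782 CPM and 1.61 to 2.43 CPM (log2 1.65, SE 0.288). DESeq2 called both (adjusted p of 0.0269 and 0.00141), and their difference from the EYA1+HOXA9 line passed in edgeR (adjusted p of 0.0346 and 0.0132). The 2 were named after their values were seen.

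The 25 lysosome genes summed to 6485 to 6597 CPM in the DMSO libraries and 7348 to 7792 CPM in the benzarone libraries of the HOXA9 line, without overlap. The median gene was at 0.08. The protease gene Ctsd had separate groups, with DMSO at or under 1079 CPM and benzarone at or above 1217 CPM (log2 0.39, SE 0.193, edgeR adjusted p = 1). Glycolysis and hypoxia genes were positive in 5 of 25 (49.3% over all genes) with a median of -0.08, and none was called. Their pair medians were 0.15, -0.24 and -0.08. The urate transporter gene Slc2a9 read 9.94 ± 1.15 CPM with DMSO and 12.6 ± 0.905 CPM with benzarone (SD, n = 3), separate groups at log2 0.34 (SE 0.126, edgeR adjusted p = 1).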
